A study of Homo sapiens with 12 samples.

Results

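The comparison described here set SW48 cells treated with azacytidine and then with Trichostatin A against SW48 cells treated with azacytidine alone, and so asks what Trichostatin A added once azacytidine had acted. SW48 is an established human colorectal cancer line with microsatellite instability, per the labels, and all groups are cultures of it. The members were 6 of the 12 arrays of the series, chosen by their titles. They were 3 arrays of the combined treatment (5'-Aza-cytidine at 1 µM for 5 days, followed by Trichostatin A, TSA, at 0.5 µM for 2 days) and 3 arrays of azacytidine alone (1 µM for 5 days). The 3 arrays of TSA alone (0.5 µM for 2 days) and the 3 untreated control arrays served to show what the same dose and time of TSA did without azacytidine. Medium was renewed daily in all groups. The combined cells may also have spent longer in culture, and longer since azacytidine was added, than the azacytidine cells, and this cannot be told apart from the effect of TSA. The labels do not say whether replicates were separate cultures, so the p-values speak only for the spread among these samples, which may be technical.

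Azacytidine is a cytidine analog that traps DNA methyltransferases and so lowers DNA methylation in dividing cells. TSA blocks zinc-dependent histone deacetylases and so raises histone acetylation. Methylated promoters are often held in deacetylated chromatin, and treating cells with both kinds of inhibitor in sequence is a classical way to look for silenced genes in cancer cells.

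RNA was measured on Illumina HumanWG-6 v3 arrays. A level is a background-corrected, quantile-normalized log2 signal of 1 probe, and a change is a difference of mean log2 signals, combined minus azacytidine unless stated otherwise. Errors given as SE come from a limma model over all 12 arrays, with n = 3 arrays per group. A gene is said to rise or fall where its Benjamini-Hochberg adjusted p from that model was below 0.05, and a probe was detected on an array where its detection p was below 0.01. Detected probes numbered 12590, 13647 and 12471 on the combined arrays, against 13297, 12815 and 12495 on the azacytidine arrays. These counts overlapped and gave no difference (two-sided exact permutation test, p = 0.9, where 20 splits allow no p below 0.1). Correlations across 9484 genes, which are not independent replicates, lay between 0.993 and 0.995 among combined arrays and between 0.993 and 0.996 among azacytidine arrays, and between 0.971 and 0.976 across the groups. Chip 1 held replicate 1 of both treatments and chip 2 held replicates 2 and 3 of both, so the chips were balanced in this comparison. Of 10 colorectal epithelial markers, 7 (among them EPCAM, KRT18 and CDX2) were detected on all 12 arrays and 3 (VIL1, GPA33 and LGALS4) on none.

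After the combined treatment 264 of 9484 tested genes were at least 2-fold higher than after azacytidine alone, and 35 were at least 2-fold lower. All 43 genes that changed by 4-fold or more were higher. They led with a secreted neuropeptide precursor, a pigment cell protein, galectins, an alpha globin, vesicle proteins and germ cell genes. In total 3321 genes passed the threshold in limma, which is 35.0% of those tested, with 1485 higher (15.7%) and 1836 lower (19.4%). The median change of the genes that rose was 0.54, and that of the genes that fell was −0.43. Increases were thus the larger changes and decreases the more numerous. The 2-fold groups were 2.78% and 0.369% of tested genes. The arrays of the treatments did not overlap for 4671 genes (49.3%).

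The balance of small changes depended on how arrays were brought to 1 scale. With quantile normalization the all-gene median was −0.04. With median scaling it was −0.20, with 708 higher and 2326 lower genes. Cyclic loess gave 1665 higher and 1297 lower genes, with an all-gene median of 0.01. Small changes below are therefore relative to the normalization, and a list is named beside its value under median scaling wherever that ends or turns a statement. The number of genes with a 2-fold change also depended on the background correction, with 264 higher and 35 lower here, 183 and 11 with a larger offset, 105 and 6 with no correction, and 67 and 5 on the authors' processed values. The scaling moved it too, to 187 higher and 54 lower with median scaling and 255 and 17 with cyclic loess.

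The largest increase was in PMEL, which encodes a structural protein of melanosomes. PMEL had log2 signals of 9.23, 9.06 and 8.95 on the combined arrays, against 5.02, 5.20 and 5.06 on the azacytidine arrays. It was detected on all combined arrays and on no other array of the series, so that the fitted change of 3.99 ± 0.08 (SE, adjusted p = 1.25e-11) is backed by a bound of at least 6.58-fold. Such a bound sets the mean of the detected group against the dimmest detected signal of each array of the other group, or the probe's own signal where that was brighter. VGF, the precursor of several secreted neuropeptides, had 13.06, 13.04 and 12.99 after the combined treatment and 9.68, 9.62 and 9.57 after azacytidine alone. Its change was 3.41 ± 0.08 (SE, adjusted p = 2.39e-11). VGF was already detected in untreated cells, with a mean of 8.80 there and 8.94 after TSA alone.

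LGALS1, the gene of the carbohydrate-binding protein galectin-1, showed 13.18, 13.26 and 13.19 on combined arrays, against 9.74, 9.92 and 9.96 on azacytidine arrays, a change of 3.34 ± 0.08 (SE, adjusted p = 2.77e-11). HBA2, an alpha globin gene, had 11.11, 10.91 and 10.73 in combined cells, against 8.02, 7.58 and 7.43 in azacytidine cells, and its change was 3.24 ± 0.13 (SE, adjusted p = 3.37e-09). SYT11, a synaptotagmin of vesicle traffic, had 9.98, 9.78 and 9.81 in combined cells, against 6.91, 6.73 and 6.92 in azacytidine cells, a change of 3.00 ± 0.15 (SE, adjusted p = 1.56e-08). Only genes without overlap between the treatments could be named among the largest changes, so non-overlap of these genes adds no support. HBA2 and SYT11 were undetected on every TSA and control array and LGALS1 was detected on all of them. In the plot of single arrays the combined arrays of these genes lie above every other array of the series.

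**Figure D1:**
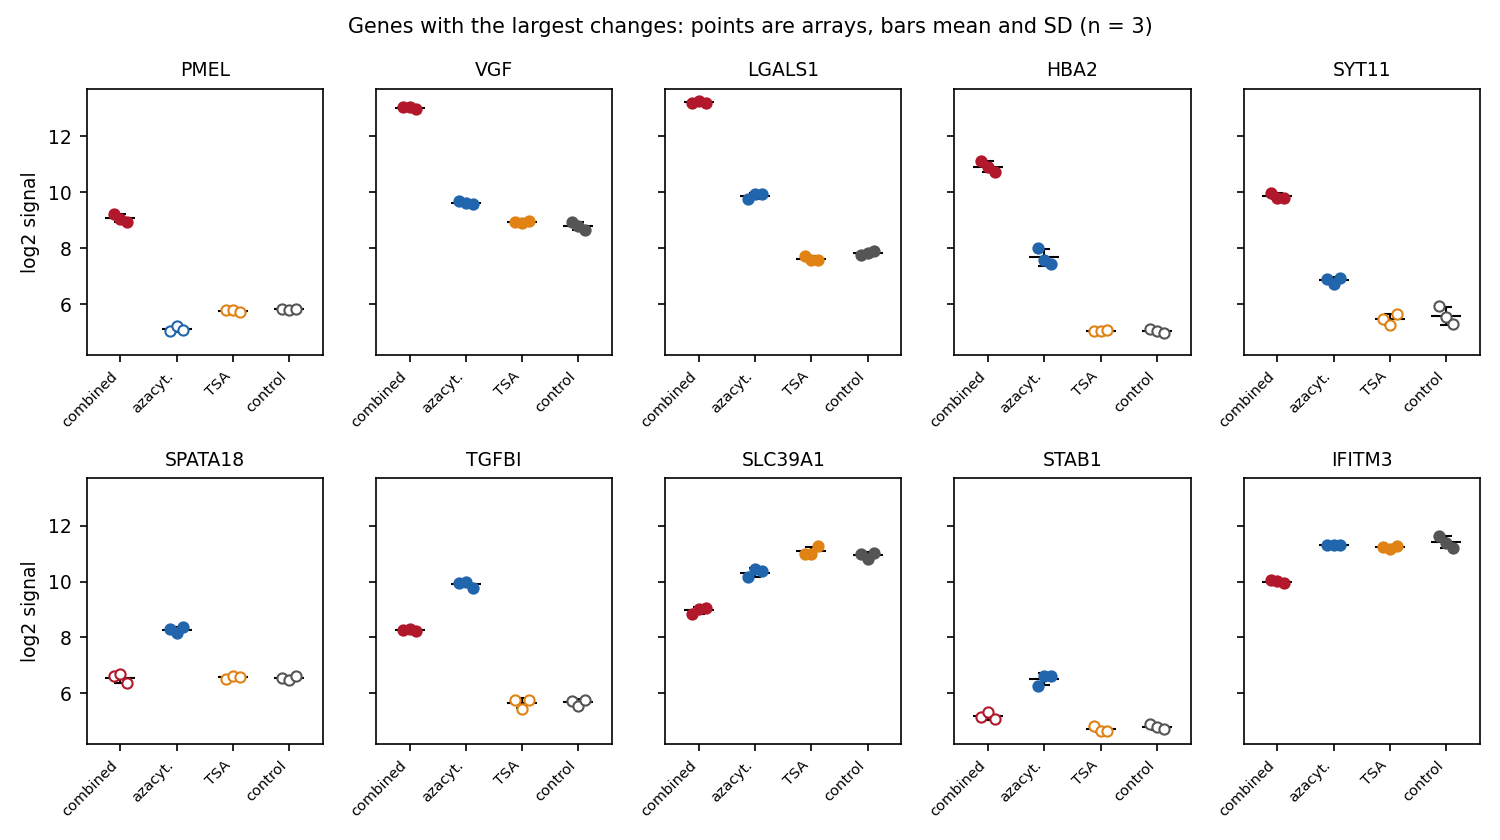
Log2 signal (vertical axis) of 10 genes on the 3 arrays of each treatment, with the mean and SD; filled points mark groups detected on all 3 arrays and open points the others. The 5 upper genes are highest after the combined treatment, with LGALS1 between 13.18 and 13.26 there, and in the 5 lower genes the combined arrays lie below all azacytidine arrays.

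The other leading increases included CCK, which encodes the gut hormone and neuropeptide cholecystokinin (2.85 ± 0.13 SE). NNAT, the imprinted neuronatin gene, changed by 2.64 ± 0.09 SE. CRYM, encoding a thyroid hormone-binding crystallin, was detected on combined arrays only (at least 3.24-fold), as was LILRB5, a leukocyte immunoglobulin-like receptor gene (at least 3.50-fold). QPRT, an enzyme gene of NAD synthesis from tryptophan, changed by 2.51 ± 0.13 SE. LGALS7 and LGALS7B, galectin-7 genes of stratified epithelia, changed by 2.61 and 2.65, and MBD3L5, MBD3L3 and MBD3L2, relatives of the chromatin protein MBD3, by 3.14, 2.96 and 2.80. The first pair of MBD3L genes was undetected on azacytidine arrays, so these fitted values are not exact. Because near-identical relatives may share a probe, values for single members of the LGALS7, MBD3L, HBA, CGB, SPANX, PRAMEF, TUBA3, metallothionein and histone families are uncertain.

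The promoters of these genes differed widely in the CpG dinucleotides on which DNA methylation sits. VGF and QPRT, near both ends of that range, had these RefSeq promoters in GRCh38.p14, from 250 bases before to 50 after the gene's start, 5′ to 3′, with CpG in capitals. VGF had 35 CpG in 300 bases and QPRT had 3.
VGF (chr7:101165520-101165819, minus strand): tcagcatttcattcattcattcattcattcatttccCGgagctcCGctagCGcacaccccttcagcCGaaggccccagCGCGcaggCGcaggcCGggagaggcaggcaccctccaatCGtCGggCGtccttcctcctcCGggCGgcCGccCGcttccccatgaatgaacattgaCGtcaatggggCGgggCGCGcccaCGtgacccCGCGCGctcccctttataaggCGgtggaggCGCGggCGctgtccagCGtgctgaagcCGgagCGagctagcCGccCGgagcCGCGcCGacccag
QPRT (chr16:29678930-29679229, plus strand): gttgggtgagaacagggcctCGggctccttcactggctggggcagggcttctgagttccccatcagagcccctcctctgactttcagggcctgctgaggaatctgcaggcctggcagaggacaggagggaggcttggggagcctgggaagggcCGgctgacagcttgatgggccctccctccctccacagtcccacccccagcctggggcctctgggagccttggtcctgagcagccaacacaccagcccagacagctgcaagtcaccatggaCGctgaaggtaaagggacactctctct
Ratios of observed to expected CpG were 1.03 for VGF and 0.0977 for QPRT. Over all 1485 genes that rose, a promoter was at hand for 80.9%, with a median ratio of 0.78 and 72% at or above 0.6. Over the 1836 that fell, with 83.2% at hand, the median was 0.87 and 86% reached 0.6. All tested genes had a median of 0.85, with 83.7% at or above 0.6. For the 264 genes that rose by 2-fold or more a promoter was at hand for 75%, too few for this check, which is void for them.

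The largest decrease was in SPATA18, a p53-inducible gene of mitochondrial quality control. It had 6.63, 6.71 and 6.37 after the combined treatment, against 8.30, 8.15 and 8.36 after azacytidine alone, a change of −1.71 ± 0.10 (SE, adjusted p = 4.72e-08). TGFBI, the gene of a secreted matrix protein induced by TGF-beta, had 8.26, 8.29 and 8.23 in combined cells, against 9.94, 9.99 and 9.78 in azacytidine cells (−1.64 ± 0.10 SE, adjusted p = 1.03e-07). As with the largest increases, non-overlap was a condition for naming both genes. TGFBI was undetected on all TSA and control arrays. SLC39A1, a zinc importer gene, had 8.84, 9.03 and 9.05 on combined arrays, against 10.15, 10.46 and 10.36 on azacytidine arrays (−1.35 ± 0.11 SE, adjusted p = 1.38e-06). Its combined arrays were the lowest of the series, below control arrays at 10.97, 10.82 and 11.02.

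STAB1, a scavenger receptor gene, had 5.17, 5.32 and 5.08 after the combined treatment, against 6.27, 6.64 and 6.62 after azacytidine alone, and was undetected on all arrays but the azacytidine ones. Its fitted change of −1.32 was therefore only bounded, at least 1.11-fold lower. IFITM3, an interferon-induced membrane protein that restricts virus entry, had 10.04, 10.01 and 9.95 in combined cells, against 11.31, 11.32 and 11.31 in azacytidine cells (−1.31 ± 0.09 SE, adjusted p = 4.27e-07). APOC1, an apolipoprotein gene, changed by −1.31 and PTGER2, a receptor gene for prostaglandin E2, by −1.20. The embryonic globin gene HBE1 changed by −1.30 (at least 1.41-fold), opposite in sign to the alpha globins. ACYP2 and CAMK1, encoding an acylphosphatase and a calmodulin-dependent kinase, were detected on all arrays of the other groups and on no combined array, with bounds of at least 1.14-fold and 1.32-fold. TMEM231, a protein of the base of cilia, behaved the same way (at least 1.66-fold lower). The remaining genes among the 15 largest decreases were SPON1, ABHD14A, PPIH and DHRS4, with changes from −1.27 to −1.14.

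TSA without prior azacytidine changed few genes. The comparison of TSA with control arrays shares no array with the combined and azacytidine arrays. It passed the threshold for 14 genes (0.148%). Where a gene was not above background in either group, a change near 0 there says nothing about TSA. The 264 genes that were 2-fold higher after the combined treatment had a median TSA minus control change of −0.05, with a range from −0.52 to 0.93, and 2 of them were called there, although 152 of them were undetected on all control arrays. The 35 genes that were 2-fold lower had a median of −0.07 and none called. Across 9484 genes the changes in both comparisons had a correlation of −0.07. LGALS1 and VGF, detected on all TSA and control arrays, had TSA minus control changes of −0.21 and 0.14, and neither passed. For PMEL, HBA2 and SYT11, undetected in both groups, no such change could be measured. The scatter of both changes shows the points spread along the combined axis and close to 0 on the TSA axis.

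**Figure D2:**
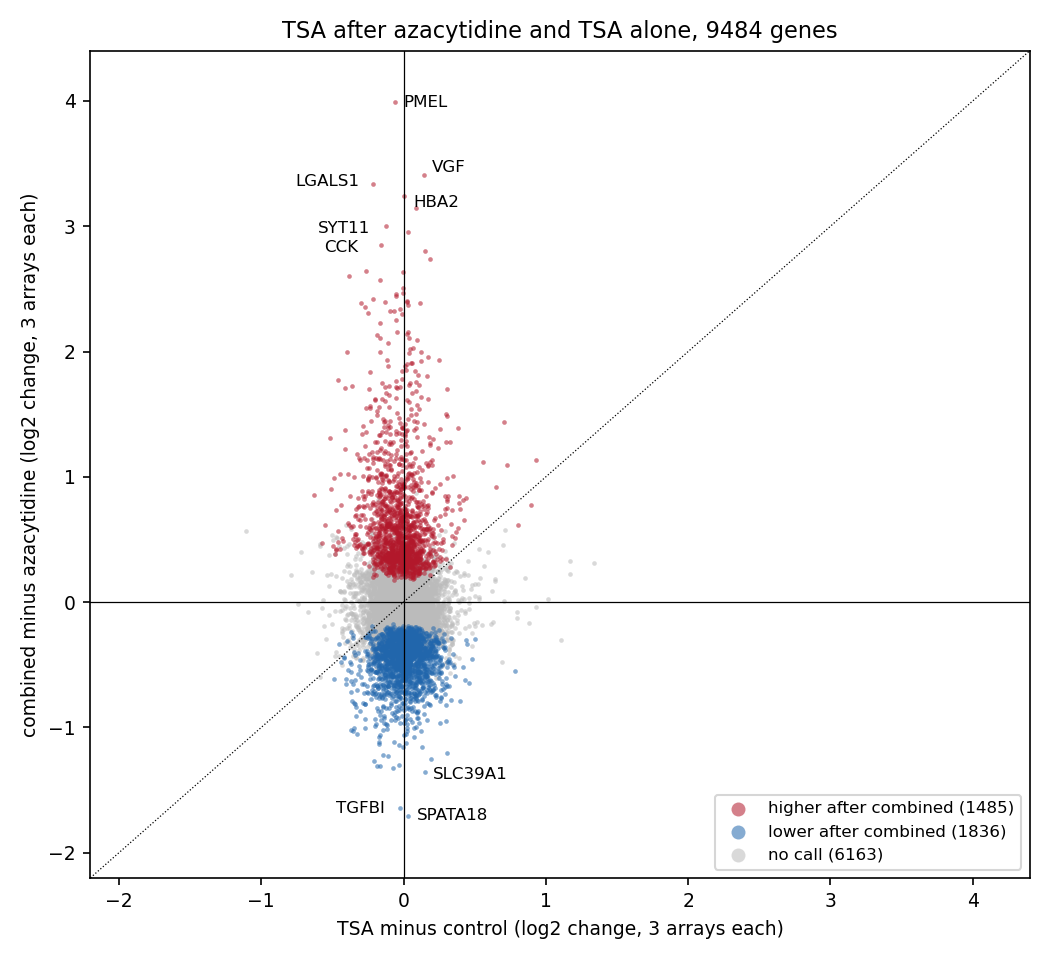
Each point is 1 of 9484 genes, with the log2 change of TSA minus control on the horizontal axis and of combined minus azacytidine on the vertical axis (3 arrays in each group), and the dotted line marks equal changes. The 1485 genes that rose (red) and the 1836 that fell (blue) after the combined treatment lie near 0 on the horizontal axis, with PMEL at 3.99 and SPATA18 at −1.71 on the vertical one.

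The difference between both TSA effects was tested as an interaction in the same model, that is, combined minus azacytidine less TSA minus control. It passed the threshold for 2149 of 9484 genes (22.7%), 1096 above 0 and 1053 below, and the split depended on the scaling, with 436 and 1152 under median scaling and 1241 and 664 under cyclic loess. Fitted on the arrays of each chip alone, 519 genes passed on chip 1 and 557 on chip 2, with 378 and 418 above 0. Among genes detected on all 12 arrays, LGALS1 (3.55) and VGF (3.27) had large positive values, and PTGER2 (−1.51) and SLC39A1 (−1.50) large negative ones.

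Levels in the untreated cells differed between the genes that rose. The median level of the 264 genes that were 2-fold higher was 8.25 after the combined treatment, 6.78 after azacytidine, 5.88 after TSA and 5.90 in control cells. The 35 genes that were 2-fold lower had medians of 6.82, 7.96, 7.49 and 7.46 in the same groups. These medians hide different patterns. Of the 264 genes, azacytidine was called above control for 137, below control for 75 and in neither direction for 52. Some genes were thus high without azacytidine, lower with it, and higher again in combined cells. The shares of all tested genes called each way were not counted, so these counts have no base share beside them. The same azacytidine arrays also served to choose the 264, which favours calls below control. Chip 1 held azacytidine replicate 1 and control replicates 1 and 2, so chips were not balanced between azacytidine and control. S100A14, a calcium-binding protein of epithelia, had means of 8.38 after the combined treatment, 6.49 after azacytidine, 8.58 after TSA and 8.69 in control cells. LAMB3, a laminin subunit of basement membranes, had 13.09, 11.20, 13.41 and 13.40 in these groups, and its change between the first pair was 1.89 ± 0.07 (SE, adjusted p = 1.52e-09). MT2A and SFN also had their lowest means in azacytidine cells.

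Detection itself changed for some genes. Of 9317 genes detected on no azacytidine array, 110 were detected on all 3 combined arrays, and 94 of these were undetected on all control arrays. The share of all 9317 that was undetected on control arrays was not counted, so the 94 have no base share beside them. Of 9160 genes detected on no combined array, 53 were detected on all azacytidine arrays. The counts depend on what undetected means, and fell to 20 and 1 where every array without detection had to have a detection p over 0.05. Among the 109 of the 110 genes that were tested, 107 rose and 28 had a bound of 2-fold or more, while none of the 53 had such a bound. The genes were chosen by detection on these same arrays, so the 107 increases add no support. After PMEL the highest bounds belonged to CGB5, a gene of the beta subunit of chorionic gonadotropin (at least 4.48-fold), MBD3L5 (at least 3.96-fold), PRAMEF4, of a family expressed in germ cells and early embryos (at least 3.91-fold), and MBD3L3 (at least 3.55-fold). CGB5 had 8.59, 8.59 and 8.39 on combined arrays, against 5.78, 6.36 and 6.11 on azacytidine arrays. LILRB5 (3.50), CRYM (3.24), KHDC1 (2.87), ZCCHC12 (2.78) and TMSB15A (2.68) came next.

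Several genes that rose by 2-fold or more lay next to each other. Counting genes with at most 2 others between them in the order of RefSeq genes, the 264 held 23 such groups with 52 genes, a description made after their values were seen. How many such groups other sets of tested genes hold was not counted. Some groups are near-identical relatives that may share a probe, such as the HBA, MBD3L, LGALS7 and CGB genes, and may count the same signal more than once. The longest run was KHDC1, DPPA5, KHDC3L, OOEP and DDX43, genes known from oocytes, early embryos, pluripotent cells or testis. KHDC1 had 7.97, 7.82 and 7.87 in combined cells, against 5.33, 5.40 and 5.71 in azacytidine cells, at least 2.87-fold higher (fitted change 2.41). DPPA5 had 7.76, 7.88 and 7.63 after the combined treatment, against 5.90, 5.77 and 5.34 after azacytidine alone, at least 2.62-fold higher (fitted change 2.09). DDX43 was at least 1.67-fold higher. KHDC3L and OOEP, each detected on 1 azacytidine array, changed by 2.37 and 1.34. All 5 were detected on every combined array and on at most 1 azacytidine array, and were undetected in TSA and control cells. For OOEP the means were 5.88 on azacytidine arrays and 4.63 on control arrays. Only 1 of these arrays detected it, so this difference has no exact size. Other such groups paired HBA1 with HBA2, MT3 with MT2A, CGB1 with CGB5, TEX101 with LYPD3, ZFP42 with TRIML2, HLA-DMA with HLA-DMB, and S100A2, S100A3 and S100A14.

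Gene lists of pathways and cell types were described by how many tested members rose or fell, beside 15.7% and 19.4% of all tested genes, and by their median beside −0.04. A member that is silent elsewhere was tested only if enough arrays detected it, so these counts do not speak for whole lists. Members detected on combined arrays only passed the filter through that group alone, so their increases lend a list's count no support. In metallothioneins, small proteins that bind zinc and copper, together with their regulator MTF1 and the zinc exporter SLC30A1, 8 of 9 tested members rose and 0 fell (13 listed, median change 0.76). Near-identical relatives among them may share a probe, so this count may hold the same signal more than once. MT3 had 10.03, 10.01 and 9.92 after the combined treatment, against 8.59, 8.48 and 8.56 after azacytidine alone, a change of 1.45 ± 0.07 SE. MT2A had 13.41, 13.33 and 13.07 in combined cells, against 11.99, 12.11 and 12.06 in azacytidine cells (1.22 ± 0.09 SE). MT1H changed by 1.03 and MT1G by 0.89, and MTF1 by −0.14 with an adjusted p of 0.262 in limma. Arrays did not overlap for 8 of the 9 tested members, against 49.3% of all tested genes, which adds little to their calls. MT3 was undetected in TSA and control cells, whereas MT2A, MT1H and MT1G had their lowest means in azacytidine cells.

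**Figure D3:**
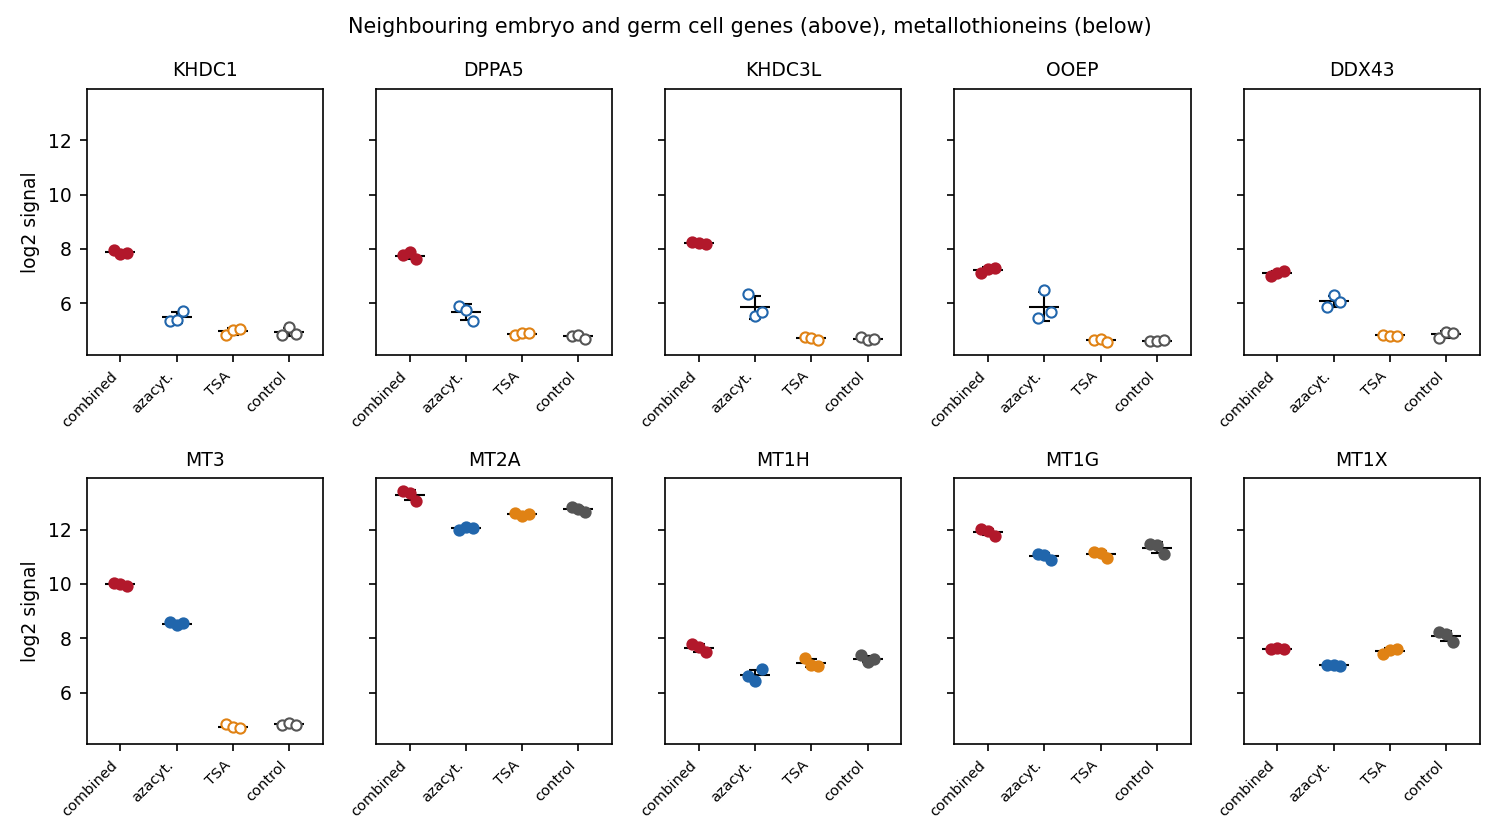
Log2 signal (vertical axis) of 5 neighbouring embryo and germ cell genes (upper panels) and 5 metallothionein genes (lower panels) on the 3 arrays of each treatment, with mean and SD; open points mark groups not detected on all 3 arrays. Combined arrays lie above azacytidine arrays in every panel, from KHDC1 (7.82 to 7.97 against 5.33 to 5.71) to MT1X (7.59 to 7.65 against 6.99 to 7.01).

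Promoters of metallothionein genes are known for metal response elements. The core letters TGCACNC and TGCGCNC were searched on both strands of the RefSeq promoter windows (GRCh38.p14, with the same 300 bases as above). They occur in 29.3% of all promoters in the table and in 39.4% of those of tested genes, so a single match is common. MT2A held 8 and MT1X held 4 of them, shown in capitals, counting matches on either strand.
MT2A (chr16:56608334-56608633, plus strand): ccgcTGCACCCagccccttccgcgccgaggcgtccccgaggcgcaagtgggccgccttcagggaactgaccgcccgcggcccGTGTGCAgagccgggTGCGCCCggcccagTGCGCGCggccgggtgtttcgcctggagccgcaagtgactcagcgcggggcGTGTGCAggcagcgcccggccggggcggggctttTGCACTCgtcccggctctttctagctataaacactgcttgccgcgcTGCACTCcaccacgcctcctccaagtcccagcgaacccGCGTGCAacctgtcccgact
MT1X (chr16:56682220-56682519, plus strand): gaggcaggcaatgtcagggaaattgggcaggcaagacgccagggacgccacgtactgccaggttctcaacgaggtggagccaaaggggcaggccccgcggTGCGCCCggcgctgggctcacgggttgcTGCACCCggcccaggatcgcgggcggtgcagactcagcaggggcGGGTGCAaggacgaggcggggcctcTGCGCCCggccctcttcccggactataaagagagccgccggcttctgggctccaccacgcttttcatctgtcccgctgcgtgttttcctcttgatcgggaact
MT1H held 8 matches, SLC30A1 held 2 and MTF1 held 0.

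The list of genes commonly reported as induced by histone deacetylase inhibition had 15 increases and 2 decreases among 24 tested (median 0.45). Under median scaling 8 rose. SYT11 led this list, followed by CPA4, a carboxypeptidase gene first found in cells treated with such inhibitors (2.32 ± 0.19 SE), ALPG, the germ cell alkaline phosphatase gene (2.31 ± 0.17 SE), and SAT1, the rate-limiting enzyme of polyamine breakdown (1.01 ± 0.08 SE). CPA4 had 9.47, 9.28 and 9.28 after the combined treatment, against 6.98, 7.12 and 6.96 after azacytidine alone. CDKN1A, the gene of the cell cycle inhibitor p21 and the best known of this class, fell. It had 13.46, 13.43 and 13.25 in combined cells, against 13.98, 13.99 and 13.96 in azacytidine cells, without overlap (−0.59 ± 0.07 SE, adjusted p = 6.19e-05). Its TSA and control means were 12.65 and 12.79. After TSA alone this list had a median change of −0.08, with 1 member called.

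Among 21 tested neuronal and neuroendocrine genes (48 listed) there were 10 increases and 1 decrease (median 0.27). Besides VGF and SYT11, CHGA, the chromogranin A gene of secretory granules, was detected on combined arrays only and had 7.65, 7.38 and 7.49 there, against 5.57, 5.30 and 5.33 on azacytidine arrays (at least 2.21-fold, fitted change 2.11). NEFM, a neurofilament subunit, was likewise detected on combined arrays only (at least 1.42-fold). CHGA and NEFM thus passed the filter through the combined arrays alone, and their increases lend the count no support. NSG1, an endosomal protein of neurons, fell by 1.06, and 2 genes of the list fell without combined or azacytidine replicate 2. Of the neuronal markers SNAP25 was detected on all 12 arrays, and its change was 0.23 (adjusted p = 0.276 in limma). Imprinted genes gave 6 increases and 3 decreases among 20, with NNAT above and MEG3, a maternally expressed noncoding RNA, at 1.09. Under median scaling 3 rose and 5 fell, and without combined replicate 3 only 1 fell. Of 16 HOX genes, the patterning transcription factors, 7 rose and 1 fell, with HOXD1 at 1.08 and HOXD11, detected on no azacytidine array, at least 1.28-fold higher.

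In the list of S100 proteins, galectins and barrier genes, 13 of 20 went up and 2 down (median 0.34), led by the galectins above and S100A14. S100A14 had 8.48, 8.37 and 8.28 on combined arrays, against 6.14, 6.66 and 6.67 on azacytidine arrays (1.89 ± 0.15 SE). Of 9 keratins 5 rose and 0 fell (median 0.59), with KRT12 at 1.43, KRT80 at 1.01 and KRT19 at 0.98, and 1 fell without azacytidine replicate 1. Of 17 epithelial-mesenchymal genes 9 rose, and TGFBI was the 1 that fell. They held the receptor tyrosine kinase gene AXL (1.54 ± 0.16 SE), the matricellular gene CCN1 (1.39 ± 0.11 SE) and THY1, a surface glycoprotein of fibroblasts and neurons (1.25 ± 0.09 SE), as well as the epithelial cadherin gene CDH1 (0.69). None of 6 fibroblast markers, was detected on all combined arrays, and 4 of them (COL1A2, COL3A1, DCN and LUM) were detected on no array of the series.

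Intestinal differentiation genes had 7 increases and 2 decreases among 12 (median 0.41, with 4 that rose under median scaling). The mucin gene MUC1 changed by 1.13 ± 0.12 SE and the carbonic anhydrase gene CA4 by 1.06. CDX2, the transcription factor of intestinal identity, fell, with 10.77, 10.98 and 11.07 in combined cells, against 11.32, 11.45 and 11.41 in azacytidine cells (−0.45 ± 0.10 SE, adjusted p = 0.00328). Of 26 WNT target and intestinal stem cell genes, 4 went up and 8 down. Among them APCDD1 changed by −0.91, SOX9, a transcription factor of crypt cells, by −0.78, and DKK1, a secreted WNT antagonist, by 0.90. The 32 genes of the actin cytoskeleton and adhesion had 10 increases and 4 decreases (3 and 7 under median scaling, where the median was −0.09 against 0.09), with LAMB3 at 1.89 and the integrin gene ITGA2 at 1.10.

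Blood, globin and endothelial genes were tested for 9 of 29 members, of which 6 rose and 3 fell (1 fell under cyclic loess and on chip 2 alone). HBA1 had 10.22, 10.28 and 10.02 after the combined treatment, against 8.11, 8.22 and 7.87 after azacytidine alone (2.11 ± 0.12 SE). VWF, the von Willebrand factor gene, had 10.02, 9.79 and 9.78 in combined cells, against 8.04, 7.54 and 7.93 in azacytidine cells (2.03 ± 0.15 SE), and was undetected without azacytidine, as was CD14 (0.48). Of 5 blood markers 3 (PTPRC, CD3E and HBB) and of 4 endothelial markers 2 (CDH5 and KDR) were detected on no array of the series. CD79A was detected on 1 combined array and PECAM1 on 1 azacytidine array. In bulk RNA of this kind, more cells with a transcript and more transcript per cell cannot be told apart.

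For the cancer-testis and germline list the share of increases (31.1%) was above the 15.7% of all genes. Its share of decreases (16.4%) was below their 19.4%. DPPA4, DPPA5 and DDX43 rose but passed the filter through the combined arrays alone, so they lend this difference no support. Of 61 tested 19 rose and 10 fell (median 0.10, with 11 that rose and a median of −0.07 under median scaling). TEX19, a germ cell gene that guards against transposons in mice, had 10.20, 10.23 and 10.17 after the combined treatment, against 8.29, 8.20 and 8.32 after azacytidine alone (1.93 ± 0.09 SE). DPPA4, a nuclear protein of pluripotent cells, was detected on combined arrays only (at least 1.23-fold, fitted change 1.73). SPANXA1, a sperm protein gene, changed by 1.23. DAZL, an RNA-binding protein of germ cells, fell, with 6.85, 6.65 and 6.98 in combined cells, against 7.79, 8.04 and 8.04 in azacytidine cells (−1.13 ± 0.10 SE, adjusted p = 3.18e-06). DPPA4, TEX19 and DAZL arrays did not overlap between the treatments. Of 18 genes with a reported promoter hypermethylation in colorectal tumours, 6 went up and 2 down (median 0.07, and −0.09 under median scaling). They were led by DKK1 and by NDRG4, a stool-test methylation marker gene, at 0.84, and chip as a block gave 4 that fell. Only 1 fell without combined replicate 1 or 3 or azacytidine replicate 3.

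**Figure D4:**
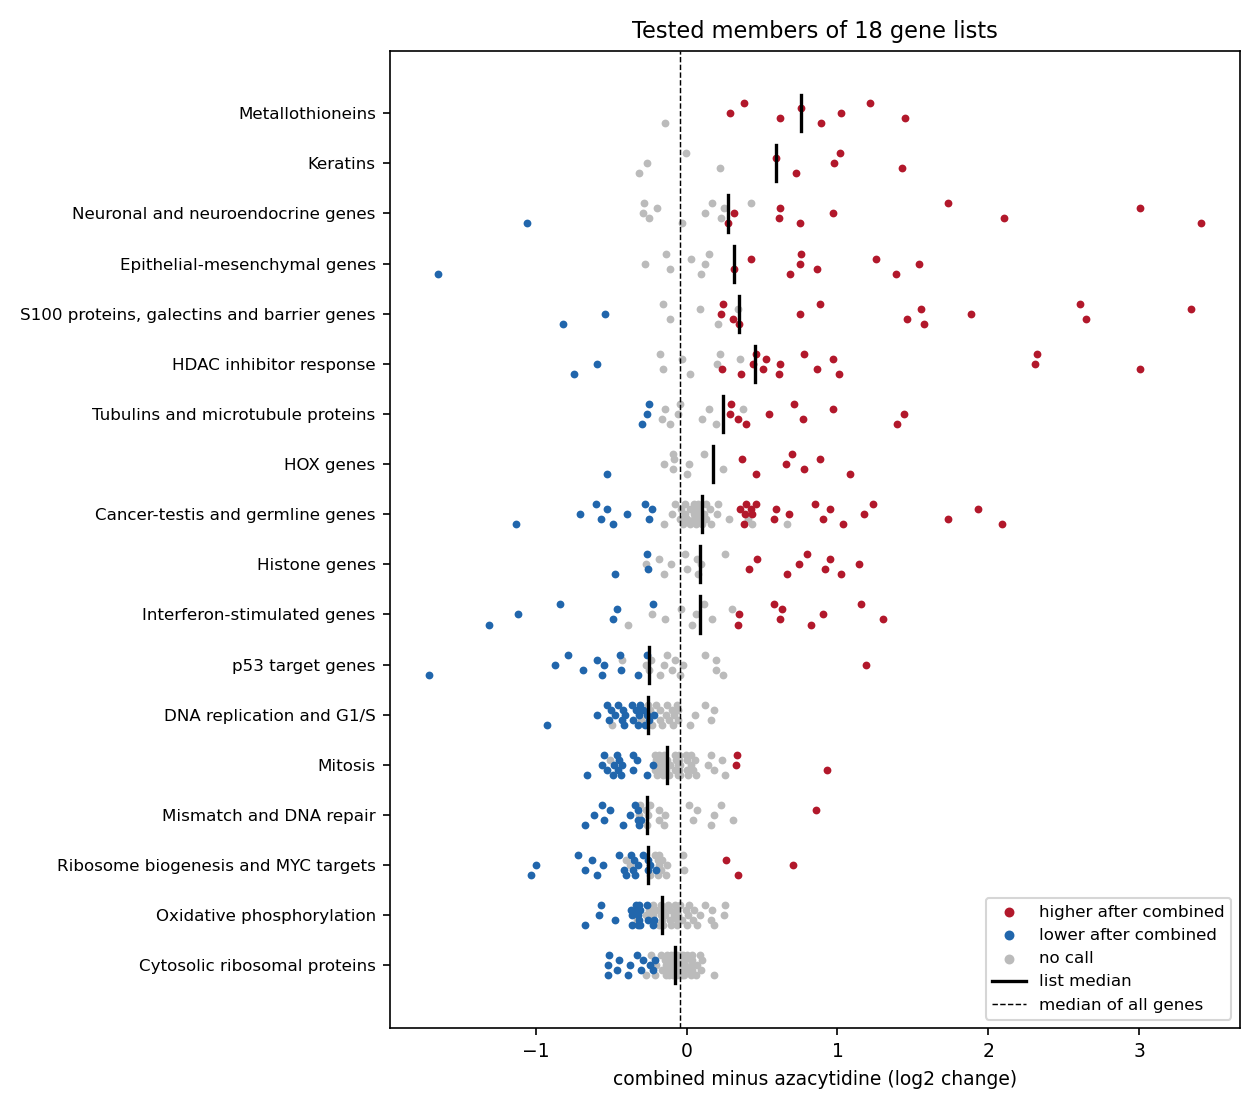
Log2 change of combined minus azacytidine (horizontal axis) of every tested member of 18 gene lists; red points rose, blue points fell, grey points did not pass the threshold, bars mark list medians and the dashed line the median of all genes, −0.04. Most coloured points lie to the right for metallothioneins and keratins and to the left for the p53, replication, repair and ribosome lists.

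In DNA replication and G1/S 22 of 45 fell and 0 rose (median −0.25). TYMS, the thymidylate synthase gene, had 9.38, 9.77 and 9.77 on combined arrays, against 10.36, 10.58 and 10.75 on azacytidine arrays (−0.92 ± 0.15 SE, adjusted p = 0.000513). CDC25A, a phosphatase of cell cycle entry, changed by −0.60. In mitosis genes 16 of 59 fell and 3 rose (median −0.13), with the cyclin gene CCNB1 at −0.66 and the phosphatase gene CDC25B at 0.93. Among cell cycle inhibitors and G1 cyclins 8 of 18 fell and 0 rose, including CDKN1A, MYC (−0.33) and CDK4 (−0.48). CDKN2A, the gene of the inhibitor p16, had a change of −0.39 (adjusted p = 0.095 in limma).

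Of 37 ribosome biogenesis and MYC target genes, 20 went down and 3 up (median −0.26). TSR1, a factor of small subunit maturation, had 6.74, 6.81 and 6.81 in combined cells, against 7.58, 7.89 and 7.88 in azacytidine cells (adjusted p = 5.39e-05 in limma). RRP9, of the snoRNP that processes ribosomal RNA, changed by −1.03, with detection on 1 combined array, and SRM, the spermidine synthase gene, by −0.72. Of 66 cytosolic ribosomal protein genes 13 went down and 0 up, near the share of all genes (7 fell on chip 2 alone). RPL29 and RPL23A each changed by −0.52. Oxidative phosphorylation had 19 decreases and 0 increases among 58 genes (median −0.16), led by CYC1, the cytochrome c1 gene (−0.67), and NDUFB2, a complex I subunit (−0.58). That count rested on the scaling and on single arrays. It was 30 under median scaling, 12 on chip 2 alone, 10 without combined replicate 1, and 12 and 11 without azacytidine replicates 2 and 3.

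The p53 target list had 11 decreases and 1 increase among 27 genes (median −0.25). SPATA18 fell most, followed by SESN1, a stress-induced inhibitor of mTOR signalling, which had 8.01, 8.02 and 8.38 after the combined treatment, against 9.12, 8.98 and 8.92 after azacytidine alone (−0.87 ± 0.13 SE, adjusted p = 0.000221). TP53I3 changed by −0.78. SFN, which encodes the cell cycle checkpoint protein 14-3-3 sigma, was the exception, with means of 13.12 ± 0.05 in combined cells and 11.92 ± 0.07 in azacytidine cells (SD, n = 3 each) and no overlap (1.19 ± 0.09 SE, adjusted p = 6.65e-07 in limma). SFN is also an epithelial gene. In mismatch and DNA repair 12 of 30 genes went down and 1 up (median −0.26), with BRCA1 detected on no combined array (at least 1.17-fold lower) and the nucleotide excision repair gene ERCC1 at 0.85. For 26 apoptosis regulators there were 4 increases and 4 decreases, with 0 that rose under median scaling and 2 without azacytidine replicate 3. Heat shock genes had 4 increases and 7 decreases among 25, with HSPA2, a testis-enriched member, at 1.21 and HSPA8, the constitutive HSC70 gene, at −0.59.

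Of 20 histone deacetylase and corepressor genes 1 went up and 2 down, below the shares of all genes. HDAC4 had 9.68, 9.80 and 9.97 in combined cells, against 10.56, 10.46 and 10.44 in azacytidine cells (−0.67 ± 0.09 SE, adjusted p = 0.000147). HDAC8 changed by −0.54, with detection on 1 combined array, and RCOR1, a corepressor gene detected on 1 combined and no azacytidine array, by 0.65. HDAC1, HDAC2, HDAC3, HDAC6 and HDAC11 had changes between −0.12 and 0.22, and none passed (adjusted p from 0.209 to 0.466 in limma). Of 15 histone acetyltransferase and acetyl reader genes 2 fell, KAT2A (−0.62) and BRPF3 (−0.72), and 4 fell under median scaling, while 2 rose without azacytidine replicate 1. In the DNA methylation machinery 1 of 10 rose and 2 fell, among them UHRF1, which recruits DNMT1 to replicated DNA (−0.48 ± 0.10 SE, adjusted p = 0.00232). The other calls, DMAP1 (0.35) and MBD2 (−0.33), lost their pass in most fits with 5 of the 6 arrays, with changes of 0.26 to 0.37 and of −0.37 to −0.21 there, and MBD2 was undetected on all combined arrays. Leaving out any 1 of the 6 arrays but combined replicate 2 left 0 increases, and any 1 but azacytidine replicate 3 left 1 decrease. DNMT1, the enzyme trapped by azacytidine, had 13.03, 13.10 and 13.12 on combined arrays, against 13.09, 13.35 and 13.29 on azacytidine arrays, with overlap. Its change was −0.16 (95% interval −0.36 to 0.04, adjusted p = 0.208), and that of DNMT3B was 0.07 (interval −0.13 to 0.27).

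Of 22 histone genes 9 went up and 3 down (median 0.09, and −0.03 under median scaling). The members that rose were H1 linker and H2A or H2B genes, led by H2AC8 (at least 1.46-fold), H1-2 at 1.02 and H2AJ at 0.95. Most tested members were of these classes, and the 3 that fell, H2AX, MACROH2A1 and H2BC6, were H2A or H2B genes too. H1-2 had 13.35, 13.15 and 13.10 in combined cells, against 12.35, 12.17 and 12.02 in azacytidine cells. The 3 decreases did not last, with 0 or 1 left without combined replicate 1 or 3 or without any 1 azacytidine array. Tubulins and microtubule proteins had 10 increases and 3 decreases among 22 genes (6 rose under median scaling). TUBB2B, a neuronal beta-tubulin, had 12.62, 12.63 and 12.55 after the combined treatment, against 11.23, 11.10 and 11.15 after azacytidine alone (1.44 ± 0.07 SE), and MAP1LC3A, an autophagosome protein, changed by 1.39. Only 1 tubulin list member fell without combined replicate 1 or 2 or azacytidine replicate 2 or 3. Polycomb and histone methylation enzymes had 4 increases and 7 decreases among 31 genes, with EHMT2, a histone H3 lysine methyltransferase gene, at −0.84 and DOT1L, another, at 0.83. Between 3 and 4 fell without combined replicate 2 or 3 or azacytidine replicate 2 or 3.

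Of 24 interferon-stimulated genes 9 went up and 6 down, with members beyond 2-fold on both sides (median 0.09, and −0.00 under median scaling). SAMD9, an antiviral protein, averaged 9.08 ± 0.08 in combined cells and 7.78 ± 0.03 in azacytidine cells (SD, n = 3 each) without overlap (1.30 ± 0.11 SE), and IFI6, a survival protein, changed by 1.15. IFITM2, with 10.68, 10.55 and 10.56 in combined cells, against 11.71, 11.69 and 11.76 in azacytidine cells (−1.12 ± 0.09 SE), fell with its relative IFITM3. The 17 tested genes of antigen presentation gave 4 increases and 5 decreases. Those of the class II chaperones HLA-DMA (1.10) and HLA-DMB (1.05) rose with HLA-E and HLA-G, and TAP1, TAP2 and TAPBP (−0.65) of class I peptide loading fell with the proteasome genes PSMB8 and PSMB10. Under median scaling 2 rose. NF-kB and inflammatory genes had 2 increases and 2 decreases among 12, with 1 increase without combined replicate 1 or 2 or azacytidine replicate 3. Of 33 immediate-early and MAPK feedback genes, 10 went up and 3 down (4 rose under median scaling, and 1 fell without combined replicate 3), with the phosphatase gene DUSP5 at 0.89 and the transcription factor gene JUN at 0.71.

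Metabolic lists were mixed. Hypoxia and glycolysis had 11 increases and 7 decreases among 39 genes (7 rose under median scaling, and 11 fell with chip as a block). SLC2A3, the glucose transporter GLUT3, had 11.14, 11.12 and 11.12 after the combined treatment, against 9.25, 9.14 and 9.27 after azacytidine alone (1.91 ± 0.10 SE), while PFKL, the liver phosphofructokinase gene, changed by −0.76. Of 38 ATF4 and unfolded protein response genes, 9 went up and 8 down, with ASNS, the asparagine synthetase gene, at 1.18 and EDEM1, of protein degradation in the endoplasmic reticulum, undetected on combined arrays (at least 1.25-fold lower). Under median scaling 4 rose, under cyclic loess 14, and 5 fell without combined replicate 2 or azacytidine replicate 3. Cholesterol and fatty acid synthesis had 9 decreases and 2 increases among 28 genes, with FASN, the fatty acid synthase gene, at −0.80 and ACACA, of the preceding step, at −0.76, while 1 rose without combined replicate 3 or azacytidine replicate 2. Of 28 antioxidant and NRF2 target genes, 11 went up and 5 down, with AKR1C3, an aldo-keto reductase, at 0.73 and MGST1, a glutathione transferase, at −0.76. Under median scaling 3 rose, and 3 fell without combined replicate 1 or azacytidine replicate 3. Lysosome and autophagy had 7 increases and 1 decrease among 40 genes, with 0 that rose and 3 that fell under median scaling, and with 3 or 4 that rose without any 1 combined array or azacytidine replicate 2.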

How the data were processed

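The authors summarised scanned arrays with GenomeStudio and lumi 2.6.0, per the submitters' processing notes. For every probe on every array the table deposited as non-normalized gives a linear intensity and a detection p-value, per the file headers; its unequal array medians and positive floors fit that name. The authors also deposited normalized values, apparently log2, with an array median of 7.63 and the raw signals' rank order, used here for 1 alternative. Genome build and annotation are not given in the sources used here.

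Background was removed from the intensities of 48801 probes by limma 3.58.1 in R 4.3.3 (normexp estimated from detection p-values, offset 16). Quantile normalization and log2 followed. The filter required a detection p below 0.01 on at least 3 of 12 arrays and left 13915 probes. Of these 11694 had 1 gene in the platform annotation, and the probe with the highest mean stood for each of 9484 genes. Raw array medians lay between 117 and 135 and raw minima between 64.6 and 80.6, so dim probes limit the precision, as does the number of arrays. Of all 13915 probes, unnamed ones included, 2061 rose and 2647 fell. More than 1 probe passed the filter for 1937 genes, and in 10, none of them named, the probes disagreed in called direction. Within genes the model held 4 group means, with two-sided moderated tests, Benjamini-Hochberg adjustment over all genes of a contrast and a threshold of 0.05. The procedure was tested on simulated data with independent noise and no chip or replicate effect, so that test does not speak for such effects.

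Replicate numbers of the titles were taken to pair the samples, since same-numbered combined and azacytidine arrays deviated together from their group means (r = 0.417, 0.197 and 0.204, each over 0.1). This pairing comes from the titles and the data. All same-numbered pairs also share a chip, so pairing and chip are not separated. Arrays of different number on chip 2 had r = 0.0929 and 0.0756, and arrays on different chips had r from −0.267 to −0.228. The main model holds no pairing, which entered only as the replicate block among the alternatives.

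Earlier results of these data were known when the comparison, its 39 gene lists and the naming rule were chosen. The rule takes the 15 largest changes each way without overlap between arrays, up to 4 members of each list and those that give its range, preset regulators, up to 10 detection changes each way, and 8 genes each way for the interaction. Not every gene it allows is printed, and genes in runs of neighbours, MTF1, CD14, CDH1 and other markers were named outside it. The preset gene DNMT3A was not tested, and some preset genes are not reported here. Alternatives covered background correction, normalization, filters, probe choice, chip, pairing, array weights, moderation and leaving out single arrays. List counts under each alternative, and leaving out single TSA and control arrays for the interaction, were added after seeing the data.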

Additional observations from a re-analysis of the deposited data

Results flagged for a closer look

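The labels give TSA at the same dose and time without and with prior azacytidine, and the difference between combined minus azacytidine and TSA minus control was tested as an interaction in the limma model over 12 arrays. Culture time, which cannot be told apart from TSA in the first of these, enters it too. The interaction passed the threshold for 2149 of 9484 genes. Interaction values on the log2 scale were 4.05 for PMEL, 3.55 for LGALS1, 3.27 for VGF, 3.23 for HBA2, 3.12 for SYT11, 3.05 for MBD3L5, 3.00 for CCK and 2.99 for LGALS7. PMEL, HBA2, SYT11, MBD3L5 and CCK were not detected on any TSA or control array, and PMEL and MBD3L5 on no azacytidine array either, so their values set a measured signal against signals not above background and have no exact size. On the other side they were −1.74 for SPATA18, −1.62 for TGFBI, −1.51 for PTGER2, −1.50 for SLC39A1, −1.44 for ACYP2, −1.33 for SLC25A36, −1.28 for TMEM231 and −1.26 for HBE1. Of these, TGFBI and HBE1 were not detected on any TSA or control array, ACYP2, TMEM231 and HBE1 on no combined array, and SLC25A36 on no combined or azacytidine array. All 16 kept their direction and call under each of 25 alternatives run for the interaction, and in fits of each chip's own arrays all kept their direction, although ACYP2 did not pass on chip 2. SLC25A36, a mitochondrial carrier gene, was the 1 of these that TSA alone changed, with 0.78 against control and −0.55 for combined minus azacytidine, and it was detected on all TSA arrays only.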

How the results depend on the processing

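The count of genes past the threshold (3321) stayed between 2670 and 4062 under 21 alternatives over both chips or chip 2. The 299 genes with a 2-fold change became 111 with no background correction, 194 with an offset of 50 and 72 on the authors' processed values. The cause was not tested. The 110 genes detected on all combined and no azacytidine arrays, and the 53 with the opposite pattern, became 20 and 1 with undetected meaning a detection p over 0.05 on every array. Leaving out single combined or azacytidine arrays gave 2670 to 3017 genes, 284 to 313 with a 2-fold change, and 1696 to 1969 for the interaction. Leaving out single TSA or control arrays gave 1758 to 2267 for the interaction. The replicate block raised the count to 3750, including 3297 of the 3321 in unchanged direction, and gave 2589 for the interaction. With chip as a block 4062 passed, 3320 shared. The replicate block changed the call of none of the 191 genes the rule names. Of the 183 of these that passed, 162 kept their call under all 21 tested alternatives and none turned its direction. Of 78 list counts, 30 stayed within 1.5 times under all 21. On chip 1, fitted with its arrays of all groups and lone samples assumed to vary like the others, 789 genes passed (321 by 2-fold) and 519 for the interaction. On chip 2 there were 2766, 304 and 557. These fits were added after seeing the data and have few residual degrees of freedom. Of the 183 named genes 115 kept their call on chip 1 and 175 on chip 2, none reversed, and 53 of 191 changes on chip 1 moved by more than the replicate SD. The interaction was not run on only the 6 arrays, which lack its other groups. Signals near background, and 3 arrays a group, limit the precision of dim genes.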
